A study of Mus musculus with 12 samples.

Results

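The leukocyte integrins described here are 10 genes of alpha and beta integrin subunits, chosen by name: Itgam, Itgal, Itgax, Itgb2, Itga4, Itga5, Itga6, Itgav, Itgb3 and Itgb7. All 10 were found among the 35944 genes that could be matched in the deposited files, and 9 of them were among the 13923 genes that passed the count filter of at least 10 estimated counts in at least 3 libraries. Itgax did not pass. The RNA came from RAW 264.7 cells, a mouse macrophage-like line grown in culture, which were treated for 48 h with extracellular vesicles (EVs) released by the mouse endothelial line MS-1, dosed as 3 µg of protein per ml. Before use the EVs were electroporated with a control mimic, named in the methods as the worm miRNA cel-miR-67, or with a mimic of 1 of 3 mouse miRNAs. The groups are called ctrl-EVs, then miR-142-5p-EVs, then miR-183-5p-EVs, then miR-222-3p-EVs, and values listed by mimic or by group keep this order. Each group held 3 libraries of polyadenylated RNA, numbered 1 to 3 in the sample titles. Every group received EVs, so cells without EVs were not compared, and all libraries come from 1 cell line. What a title number stands for is not given in the sources used here, and although the methods say that experiments in general were repeated, they do not tie these libraries to separate cultures, so the tests below measure the spread between these libraries, which may be technical.

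An integrin is a pair of 1 alpha and 1 beta chain that spans the membrane, binds ligands outside the cell and is coupled to actin inside it. The beta chain limits which alpha chains can pair. Itgb2 encodes CD18, the partner of Itgal (LFA-1), Itgam (Mac-1) and Itgax (p150,95), which bind ICAMs, complement fragments and fibrinogen. Itgb7 pairs with Itga4 in the receptor for the gut addressin MAdCAM-1, while Itga4 with Itgb1 is VLA-4, a receptor for VCAM-1 and fibronectin. Itga5 and Itga6 pair with Itgb1 to bind fibronectin and laminins, and Itgav pairs with Itgb3, Itgb5 or Itgb1 to bind vitronectin, osteopontin and other RGD ligands. In macrophages these receptors serve arrest on endothelium, migration, and uptake of opsonised or dying cells. On GRCm38, Itgal (chr7:127296260-127335138), Itgam (chr7:128062640-128118491) and Itgax (chr7:128129547-128150657) lie on the plus strand of chromosome 7, and Itga4 (chr2:79255426-79333123), Itga6 (chr2:71745616-71858416) and Itgav (chr2:83724397-83806916) on the plus strand of chromosome 2. Itgb2 lies at chr10:77530252-77565708, Itgb3 at chr11:104608000-104670476, Itgb7 at chr15:102215995-102231944 and Itga5 at chr15:103344286-103366763. Itga4 overlaps Cerkl on the opposite strand, and whether the quantification used strand is not given in the sources used here. Because Itgb1 is a partner of Itga4, Itga5, Itga6 and Itgav, it is given beside the 10 genes throughout.

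The libraries held 16294611 to 22974853 estimated counts, and 3 counts, the floor used here, were 0.131 to 0.184 CPM, a limit that covers counting error only. The 9 macrophage markers summed to 840 to 1184 TPM, from Cd68 at 321 to 416 TPM and Ptprc at 201 to 290 TPM down to Adgre1 at 3.33 to 8.58 TPM and Mertk at no more than 0.14 TPM. The 10 endothelial markers summed to 15.0 to 34.1 TPM, of which Egfl7 gave 10.1 to 26.2, Pecam1 2.36 to 4.14 and Vwf 0.79 to 4.73 TPM, while Cldn5 was at 0 in every library and Kdr and Emcn had at most 3 counts. Fibroblast and lymphocyte markers summed to at most 1.01 and 2.96 TPM. In bulk RNA fewer cells of a kind and less RNA per cell cannot be told apart.

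The 3 mimics carry seeds that can be read against the integrin transcripts, so their mature mouse sequences are shown first (RefSeq, GRCm38.p6), with the seed, bases 2 to 8, in capitals. They lie at chr11:87756867-87756887 on the plus strand, chr6:30169711-30169732 on the minus strand and chrX:19146901-19146923 on the minus strand. No seed is shared between them.
miR-142-5p: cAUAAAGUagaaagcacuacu
miR-183-5p: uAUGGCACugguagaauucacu
miR-222-3p: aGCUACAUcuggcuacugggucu

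The 7 bases complementary to each seed were searched in the 3′ untranslated region (UTR) of the coding transcript with the highest level of each gene. Among the 10 genes, 2 held a match. Itga4, whose 3′ UTR is 6508 nt long, held 3 sites for miR-142-5p, and Itgb3, with 3331 nt, held 2 for miR-222-3p. The partner gene Itgb1 held 1 site for miR-183-5p in 1112 nt. Over 12552 genes with a 3′ UTR of median length 914 nt, 14.0% held the miR-142-5p site, 8.91% the miR-183-5p site and 9.41% the miR-222-3p site. A match is a description of the letters and does not show that the site was used. The sites are printed with their surroundings because they are the only seed matches found in the 3′ UTRs searched, the match in capitals. Other parts of these transcripts and other transcripts of these genes were not searched.
Itga4, first site for miR-142-5p: atctcttgcagACTTTATtataccatctt
Itga4, second site for miR-142-5p: tggagacatagACTTTATtaattaatact
Itga4, last site for miR-142-5p: gagtttctacaACTTTATacccattgctc
Itgb3, first site for miR-222-3p: ttgaacttgctATGTAGCcaaggttgact
Itgb3, second site for miR-222-3p: gggtgcatctgATGTAGCacttagttttt
Itgb1, site for miR-183-5p: ttaaaacctgtGTGCCATtgtgagttact

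The levels of the 10 genes spanned more than 3 orders of magnitude on the TPM scale, which corrects for transcript length and lets genes be compared with each other. Itga4 was the highest, with a mean of 285 ± 109 TPM (SD, n = 12 libraries), and ranked 384 among all genes by mean TPM. Itgb2 followed at 112 ± 25.5 TPM, below Itga4 in 12 of 12 libraries. Itgal stood at 34.4 ± 10.3, Itgb7 at 27.5 ± 7.64, Itgav at 21.6 ± 3.64 and Itgam at 21.0 ± 1.98 TPM. The differences between these last 4 neighbours were each smaller than the larger of the 2 SDs over libraries, so their order was not resolved. Itga5 (15.4 ± 1.27 TPM) lay below Itgam in 12 of 12 libraries and Itga6 (11.1 ± 3.35 TPM) below Itga5 in 11 of 12. Itgb3 was low at 1.10 ± 0.72 TPM, with 34.1 to 187 estimated counts per library.

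Itgax, which encodes the dendritic cell marker CD11c, was close to the floor. It had 4 to 13.4 estimated counts per library. Of its 31-base words, 10.7% also occurred in other genes, with Itgad, its neighbour in sequence, sharing the most. Its few reads are therefore uncertain. Its TPM lay between 0.06 and 0.51 in 11 libraries and at 0.86 in miR-142-5p-EVs number 3. From protein-coding transcripts alone it was 0.06 to 0.22 TPM, so the higher values came from a transcript that is not annotated as coding. No fold change is given for it.

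Taken with 17 other integrin subunit genes, the 10 genes held 69.9% to 82.5% of the summed TPM of all 27. Itga4 alone held 25.9% to 50.4%. Its mRNA exceeded the sum of both its beta partners, Itgb1 and Itgb7, in every library, by 1.11 to 4.71 times. Itgb2 mRNA in turn exceeded the sum of its alpha partners Itgal, Itgam, Itgax and Itgad, by 1.30 to 3.07 times. Itgb7 made up 20.4% to 35.4% of the sum of Itgb1 and Itgb7, so that Itgb1 was the more abundant of the mRNAs for the beta partners of Itga4. Itgb3 was a minor beta chain: Itgav mRNA was 9.17 to 44.8 times as high, while Itgb5, another partner of Itgav, was at 41.8 to 66.2 TPM. These are ratios of mRNA and say nothing of the receptor pairs on the surface.

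**Figure D1:**
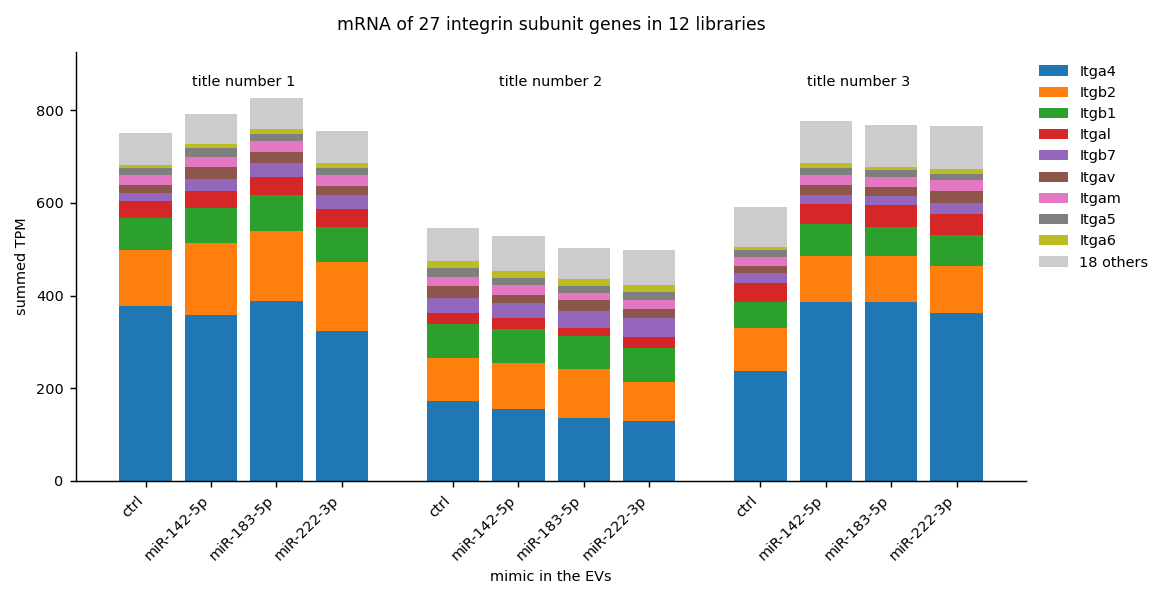
Summed TPM (y axis, linear from 0) of 27 integrin subunit genes in each of the 12 libraries, ordered by title number and labelled by the mimic in the EVs. Each colour is 1 gene, and grey holds the 18 others. The blue Itga4 segment, 129 to 173 TPM in the number 2 libraries and 238 to 389 TPM in the rest, accounts for most of the shorter bars of number 2.

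Not all of this signal came from coding transcripts. For Itga4, Itgb2, Itgam, Itgav and Itgal the protein-coding transcripts held 94.3% to 97.7% of the gene's TPM. For Itga5, Itgb3 and Itgb7 they held 81.0%, 79.8% and 76.4%. For Itga6 they held only 36.2%, and the rest lay mostly in 2 processed transcripts, Itga6-205 of 443 bases with 35.9% and Itga6-203 of 2721 bases with 27.6%. The order of the 10 genes was the same when coding transcripts alone were summed.

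To see whether the loaded EVs moved these genes, ctrl-EVs served as the reference for every mimic. No integrin gene was called at a DESeq2 adjusted p under 0.05 in any of these comparisons, 0 of 9 each for the 3 mimics, all miR-EVs together and the test across the 4 groups. Over all 13923 genes the shares called were 0.00718%, 0.0%, 0.0%, 0.0% and 0.00718%, while 73, 138, 100, 142 and 67 genes had an unadjusted p under the threshold and edgeR called 0. Libraries with the same title number deviated together, and with the number as a block the shares called over all genes were 0.0575%, 0.417%, 0.0359%, 0.632% and 0.0862%, again with 0 of 9 integrin genes. An unadjusted p under 0.05 was reached by 0 of the 27 fold changes of integrin genes over the 3 mimics without the block and by 2 of 27 with it. With the block, 816, 1407 and 910 of all 13923 genes reached it by mimic, a share close to 2 of 27. edgeR called 0 of 9 in each comparison as well, with and without the block.

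The intervals below for the mimics come from the fit with the block, so they cover only the spread left between these libraries once the number is allowed for. Among the beta2 family, Itgam changed by 0.09 on the log2 scale after miR-142-5p-EVs (95% interval -0.10 to 0.27), by 0.0035 after miR-183-5p-EVs (-0.18 to 0.19) and by 0.13 after miR-222-3p-EVs (-0.05 to 0.31). Itgal changed by 0.03, -0.07 and 0.04, with intervals between -0.29 and 0.26. Itgb2, the shared beta chain, had 0.15, 0.20 and 0.09, with intervals between -0.13 and 0.41. None of these intervals reached 1 on the log2 scale in either direction. Without the block they were wider, between -0.69 and 0.69 for Itgal and between -0.44 and 0.78 for Itgb2. Outside the beta2 family, intervals without the block passed 1 for Itga4, Itga6, Itgb7 and Itgb3.

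Among the other alpha chains, Itga5 had log2 fold changes of -0.12, -0.11 and -0.12 under the block, which turned to 0.11, 0.05 and 0.05 when only protein-coding transcripts were summed. Itgav had 0.11, 0.14 and 0.11, with intervals between -0.22 and 0.48. Itga6, the laminin receptor chain, had 0.24 (-0.05 to 0.54), 0.15 (-0.14 to 0.44) and 0.32 (0.03 to 0.61). Its normalized counts exceeded those of the ctrl-EV library with that number in 9 of 9 miR-EV libraries. These comparisons reuse the same ctrl-EV libraries, and no share over all genes is given beside them. In the fit of all transcripts with the block, the lowest DESeq2 adjusted p of Itga6 was 0.694 for a single mimic and 0.397 for all miR-EVs. From coding transcripts alone, the fit with the block gave Itga6 0.45 (0.08 to 0.83), 0.27 (-0.11 to 0.64) and 0.33 (-0.05 to 0.70) by mimic. For all miR-EVs it gave 0.35 (0.04 to 0.66, DESeq2 adjusted p 0.363), and none of these was called. In coding TPM, ctrl-EVs number 2 held 6.18 TPM, above the 5.78, 5.13 and 5.36 TPM of the mimics. At numbers 1 and 3 the coding TPM of each miR-EV library was above that of ctrl-EVs. In TPM its ctrl-EV libraries stood at 7.37, 15.4 and 6.91 for numbers 1 to 3. With miR-142-5p-EVs they were 8.98, 15.8 and 10.4 TPM. With miR-183-5p-EVs they were 10.1, 14.2 and 7.92 TPM, and with miR-222-3p-EVs 10.7, 15.9 and 9.74 TPM. The 4 groups overlapped widely, and the number 2 library was the highest of each.

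In the fit of all transcripts with the block, Itgb7 showed the other interval that excluded 0. It was at 0.36 (0.02 to 0.70) after miR-222-3p-EVs, with a DESeq2 adjusted p of 0.728. It was 0.03 and 0.24 after the other mimics. In TPM the ctrl-EV libraries held 17.7, 32.0 and 21.8, and the miR-222-3p-EV libraries 30.7, 41.1 and 23.1. The miR-222-3p-EV library was the higher one at each number in TPM, but the normalized count at number 3 was not (527 against 566). Neither change passed the test over all genes. Which intervals excluded 0 depended on the processing. From coding transcripts with the block, those of Itgb2 after miR-183-5p-EVs (0.24, 0.02 to 0.45) and Itgam after miR-222-3p-EVs (0.21, 0.02 to 0.40) were among them. Neither gene was called there.

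No gene with a seed match was called with the matching mimic. Itga4 with its 3 miR-142-5p sites changed by 0.09 after miR-142-5p-EVs (95% interval -0.17 to 0.35), beside 0.08 after miR-183-5p-EVs and -0.06 after miR-222-3p-EVs, for which no site was found. In TPM Itga4 was at 378, 173 and 238 in ctrl-EVs and at 357, 155 and 387 in miR-142-5p-EVs for numbers 1 to 3, so the pairs fell on both sides. The number 3 ctrl-EV library was the lowest of its number, the other 3 lying at 362 to 387. Itgb3 with its 2 miR-222-3p sites had -0.23 after miR-222-3p-EVs (-0.84 to 0.37), beside -0.20 after miR-142-5p-EVs and 0.04 after miR-183-5p-EVs, and the fit without the block gave 0.05. Its TPM was 0.92, 0.74 and 1.37 in ctrl-EVs and 0.44, 0.49 and 2.49 in miR-222-3p-EVs, lower at numbers 1 and 2 and higher at number 3. Itgb1, with 1 miR-183-5p site, had 0.07 after miR-183-5p-EVs (-0.08 to 0.22).

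**Figure D2:**
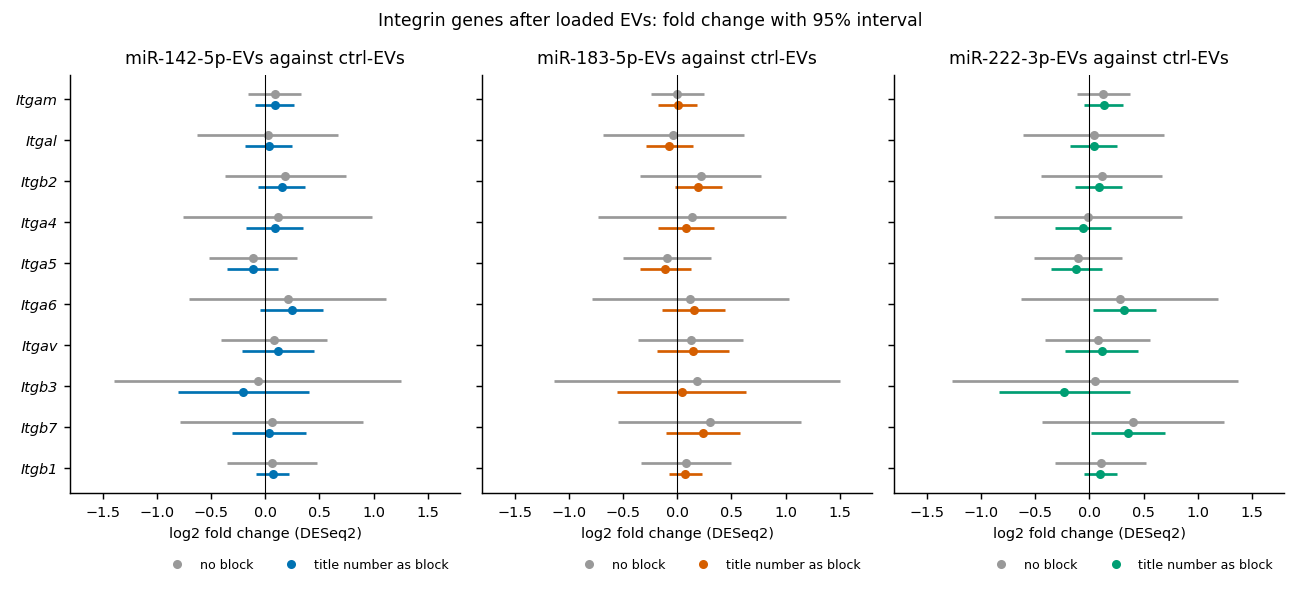
DESeq2 log2 fold change over ctrl-EVs (x axis) for 9 integrin genes and Itgb1, 1 panel per mimic, with lines for the 95% interval. Grey points come from the fit without a block and coloured points from the fit with the title number as block. The coloured intervals are shorter and include 0 except for Itga6 and Itgb7 after miR-222-3p-EVs, neither of which passed the adjusted test.

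Of 12 tested other subunits, 12 activators of integrins from inside the cell, 22 adaptors and kinases, 9 inhibitors and 20 ligands, DESeq2 called 0 in any comparison with ctrl-EVs, with or without the block, and edgeR called 0 too. Of the 225 fold changes of these genes over the 3 mimics, DESeq2 gave 3 an unadjusted p under 0.05 without the block and 22 with it, where 816, 1407 and 910 of all 13923 genes had one by mimic with the block. Without the block, the median log2 fold change of the 9 integrin genes was 0.08, 0.12 and 0.08 by mimic, beside 0.01 for all tested genes in each.

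The title number separated the libraries far more than the mimic did. Over all 13923 genes, 64.1% were called between the 4 number 2 libraries and the 8 of numbers 1 and 3, of which 32.0% of all tested were higher in number 2 and 32.1% lower. Of the 9 integrin genes 6 were called (66.7%), 3 higher and 3 lower, which is close to the background. The median absolute log2 fold change was 0.70 for the 9 genes and 0.46 for all genes. Normalized counts did not overlap between number 2 and the rest for 4 of the 9 genes (Itga4, Itgal, Itga6 and Itgb7), beside 41.3% of all genes. The integrin genes are therefore described below without being set apart from other genes. TPM ratios between number 2 and the rest had a median log2 of -0.27 over the tested genes above 1 TPM, while that of normalized counts was -0.04, so TPM values of number 2 read lower by about that shift and the fold changes below are from DESeq2.

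**Figure D3:**
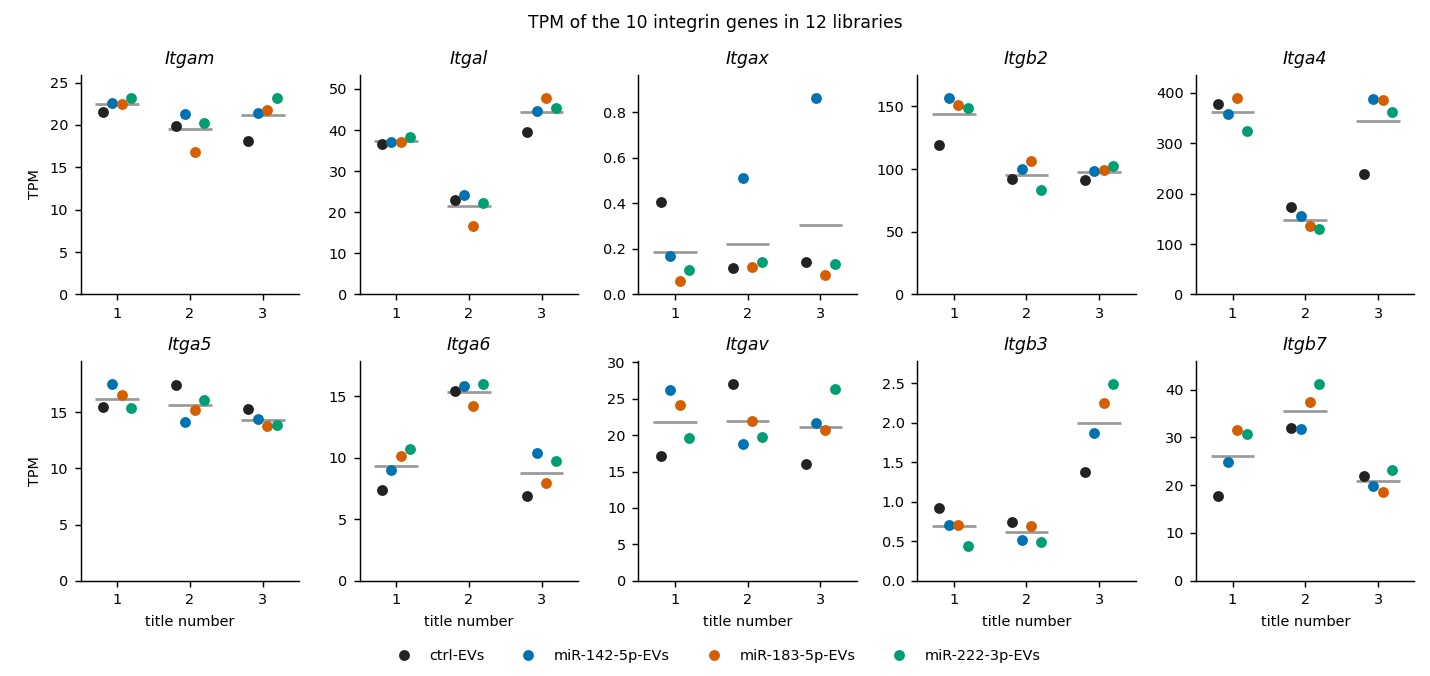
TPM (y axes, linear from 0, each gene on its own scale) of the 10 genes by title number (x axis) with 1 point per library coloured by group and a grey bar for the mean of 4 libraries. Itga4 and Itgal are low and Itga6 is high in all 4 number 2 libraries, while Itgb3 is highest in the 4 number 3 libraries at 1.37 to 2.49 TPM.

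Itga4, the alpha4 chain of VLA-4 and of the MAdCAM-1 receptor, fell most. Its TPM was 173, 155, 135 and 129 in the number 2 libraries in the order of groups, against 324 to 389 in number 1 and 238 to 387 in number 3. Number 2 was the lowest of the 3 numbers in 4 of 4 groups, and the ranges did not overlap. DESeq2 gave a log2 fold change of -1.02 ± 0.10 (SE, adjusted p 1.55e-23). Its mean share of the mRNA of 27 integrin subunits was 28.5% ± 2.61 (SD, n = 4) in number 2, 46.4% ± 3.17 in number 1 and 46.9% ± 4.55 in number 3. The ratio of Itga4 to Itgb1 plus Itgb7 in TPM was 1.37 ± 0.24 in number 2, against 3.63 ± 0.55 and 4.03 ± 0.75.

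Itgal, the alpha chain of LFA-1, fell too. The number 2 libraries held 23.1, 24.1, 16.7 and 22.3 TPM in the same order of groups, all below the 36.5 to 47.8 TPM of the other 8 (log2 fold change -0.70 ± 0.08, DESeq2 adjusted p 5.4e-16). Itgam, the alpha chain of Mac-1, was not called lower. It stood at 16.8 to 21.2 TPM in number 2 and 18.1 to 23.2 TPM in the others, with a fold change of 0.07 ± 0.07 (adjusted p 0.402, 95% interval -0.07 to 0.21), and was called higher from coding transcripts alone (0.16, DESeq2 adjusted p 0.0404). The ratio of Itgal to Itgam mRNA was 1.10 ± 0.07 in number 2, 1.66 ± 0.03 in number 1 and 2.10 ± 0.11 in number 3 (SD, n = 4 each), with no overlap between the numbers. Itgb2, which both need, had -0.09 ± 0.08 (adjusted p 0.353), and its call depended on the processing. Without the length offset it was called lower (-0.20, adjusted p 0.00744), while coding transcripts alone gave 0.05 (adjusted p 0.611). Most 31-base words of Itgam, 68.0%, also occur in other genes, so its counts are uncertain in principle. The gene that shares the most of them is Gm49368, a read-through gene that overlaps Itgam on the same strand. That gene was given at most 2.03% of the count of Itgam in any library.

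Itga6 rose most. The number 2 libraries held 15.4, 15.8, 14.2 and 15.9 TPM, above all of the other 8 at 6.91 to 10.7 TPM (1.01 ± 0.11, DESeq2 adjusted p 6.18e-19). Its main transcripts each had their highest mean in number 2. The coding Itga6-201 averaged 4.49 TPM in number 2 and 3.37 and 2.75 in numbers 1 and 3, the short Itga6-205 averaged 5.72 against 2.93 and 3.32, and coding transcripts alone gave 1.20 ± 0.14. Itga5, the other Itgb1 partner for matrix proteins, overlapped between the numbers, with 14.1 to 17.4 TPM in number 2 and 13.8 to 17.5 in the others. Its fold change of 0.26 ± 0.09 passed the test (adjusted p 0.0069), but not without the length offset (adjusted p 0.0853), without miR-222-3p-EVs number 2 (0.0753), without the whole miR-183-5p-EVs group (0.0575) or without the whole miR-222-3p-EVs group (0.103). The ratio of Itga6 to Itga5 mRNA was 0.98 ± 0.10 in number 2, 0.57 ± 0.10 in number 1 and 0.61 ± 0.12 in number 3. From coding transcripts alone it was 0.48 ± 0.045, 0.27 ± 0.027 and 0.23 ± 0.062, in that order.

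Itgb7 rose as well, to 32.0, 31.7, 37.4 and 41.1 TPM in number 2. The others held 17.7 to 31.5 TPM (0.83 ± 0.13, DESeq2 adjusted p 9.92e-10). The miR-183-5p-EV number 1 library came closest, at 31.5 TPM. The coding transcript Itgb7-201 averaged 26.3 TPM in number 2 against 16.3 and 12.7, whereas the retained-intron transcript Itgb7-204 averaged 6.64 against 7.43 and 5.41. Thus the beta chain of the alpha4 beta7 receptor and its alpha chain moved in opposite directions. Itgb1 rose by 0.31 ± 0.06 (adjusted p 3.37e-07).

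The alphav beta3 pair split differently. Itgb3, the beta chain of the vitronectin receptor, was at 0.74, 0.52, 0.70 and 0.49 TPM in number 2 and 0.92, 0.71, 0.70 and 0.44 TPM in number 1, which overlapped, but at 1.37, 1.87, 2.25 and 2.49 TPM in number 3. Against numbers 1 and 3 together number 2 was called lower (-0.72 ± 0.24, DESeq2 adjusted p 0.0047), but its range overlapped that of number 1. Itgav had 0.27 ± 0.13 (adjusted p 0.0565) and was not called. It passed in 9 of the alternatives. Among them were 5 that left out 1 library, namely number 1 or 2 of miR-142-5p-EVs, number 1 of miR-183-5p-EVs, or number 2 or 3 of miR-222-3p-EVs, with fold changes of 0.29 to 0.39 and DESeq2 adjusted p of 0.00962 to 0.0431.

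**Figure D4:**
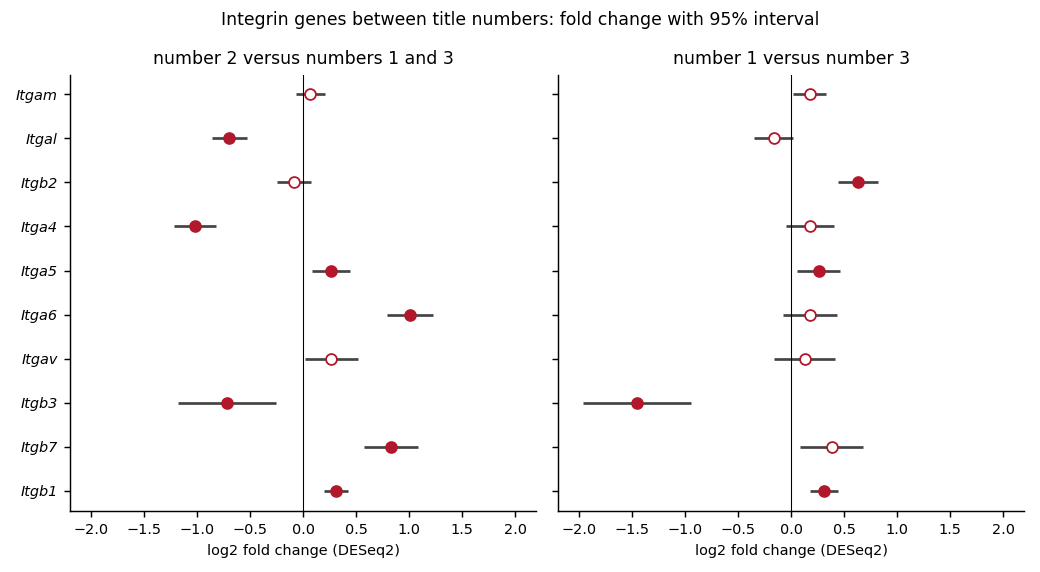
DESeq2 log2 fold change (x axis) of 9 integrin genes and Itgb1 between title numbers, with lines for the 95% interval and filled points for an adjusted p under 0.05. Itga4, Itgal and Itgb3 lie left of 0 and Itga6, Itgb7, Itga5 and Itgb1 right of it in the left panel, and Itgb2 at 0.63 and Itgb3 at -1.46 stand out in the right panel.

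Numbers 1 and 3 also differed from each other. DESeq2 called 23.4% of all genes, 12.9% higher in number 1 and 10.5% lower, and normalized counts did not overlap for 25.2%. Of the 9 integrin genes 3 were called (33.3%), 2 higher and 1 lower, and 4 did not overlap (Itgam, Itgal, Itgb2 and Itgb3). Itgb2 was at 119, 157, 150.7 and 149 TPM in number 1, against 91.0, 98.5, 99.0 and 103 TPM in number 3 (0.63 ± 0.10, adjusted p 1.91e-09). Itgb2 thus exceeded its alpha partners by 2.33 ± 0.27 times in number 1 and by 1.37 ± 0.07 times in number 3. Itgb3 was lower in number 1 by -1.46 ± 0.26 (adjusted p 5.9e-07), and the ratio of Itgav to Itgb3 was 33.6 ± 10.9 in number 1 and 10.8 ± 1.17 in number 3. Itga5 passed narrowly at 0.26 ± 0.10 (adjusted p 0.0481) and lost the call in 17 of the alternatives, including the removal of any single library other than ctrl-EVs number 1 or 3 (DESeq2 adjusted p 0.0533 to 0.276). Itgb7, at 0.38 ± 0.15 (adjusted p 0.0513), passed in 7, including without any one ctrl-EV library (9.58e-05 to 0.0495) and without miR-183-5p-EVs number 2 (0.0452).

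Other measures moved with the title number, and their part in these differences was not tested. The mitochondrial share of counts was 4.88% to 5.41% in number 2, 4.47% to 4.62% in number 1 and 3.48% to 3.92% in number 3. The TPM sums below carry the general shift of number 2 given above, a median log2 ratio of -0.27 over tested genes above 1 TPM. The 9 macrophage markers summed to 840 to 882 TPM in number 2, 1057 to 1149 in number 1 and 1134 to 1184 in number 3. Of the 8 tested, 4 fell and 2 rose in number 2. Csf1r, the receptor for the growth factor M-CSF, fell by 1.27 ± 0.13 on the log2 scale. The endotoxin co-receptor Cd14 fell by 1.48 ± 0.09 and the IgG receptor Fcgr1 fell by 2.32 ± 0.15, while Adgre1 (F4/80) rose by 0.69 ± 0.14 and Cd68 by 0.41 ± 0.08. Adgre1 overlapped number 1, with 212 to 314 normalized counts in number 2, 205 to 237 in number 1 and 106 to 126 in number 3. Markers of endothelial cells summed to 15.0 to 17.7 TPM in number 2, mostly Egfl7, and 25.6 to 34.1 TPM in the others, with Cldn5 at 0 and Kdr at or below 0.06 TPM throughout. Fibroblast and lymphocyte markers summed to 0.29 to 0.36 and 1.22 to 2.64 TPM in number 2, and to 0.16 to 1.01 and 0.72 to 2.96 TPM in the others. The 7 osteoclast markers are given because Itgb3 is high in osteoclasts. They summed to 20.7 to 24.4 TPM in number 1, 11.3 to 14.5 in number 2 and 11.6 to 15.4 in number 3. Mmp9 gave most of this (14.2 to 19.3, 7.90 to 12.0 and 8.31 to 11.8 TPM). Dcstamp was lowest in number 2 at 0.125 to 0.737 TPM, against 3.2 to 5.4 in number 1 and 1.5 to 2.6 in number 3. Ctsk was instead highest in number 2 at 0.62 to 1.11 TPM. Acp5, Oscar and Ocstamp overlapped between the numbers, and Calcr was at or below 0.07 TPM.

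Spi1, which encodes PU.1, a factor known to bind the Itgam promoter, was at 39.6 to 62.6 TPM in number 2, 97.6 to 114 in number 1 and 110 to 131 in number 3 (log2 fold change in number 2 of -0.94 ± 0.11, DESeq2 adjusted p 2.72e-15). Promoters from 250 bases before to 50 bases after the RefSeq start could be read for 6 of the 10 genes (Itgam, Itgax, Itga4, Itga5, Itgav and Itgb7). They were searched on both strands for GAGGAA, the core letters of a PU.1 box, which is present in 28.3% of 32851 promoters. Itgam held 3 matches, Itgav 2, Itga5 and Itgb7 1 each, and Itga4 and Itgax 0. Those of Itgam and Itga4 are printed, in lower case with matches of either strand in capitals, because Itga4 and Spi1 were lower in number 2 and Itgam was not called lower. Whether Spi1 had a part in any integrin difference was not tested. A match is a description of letters, and its absence from this window says nothing about the factor.
Itgam, chr7:128062390-128062689, plus strand, GRCm38.p6: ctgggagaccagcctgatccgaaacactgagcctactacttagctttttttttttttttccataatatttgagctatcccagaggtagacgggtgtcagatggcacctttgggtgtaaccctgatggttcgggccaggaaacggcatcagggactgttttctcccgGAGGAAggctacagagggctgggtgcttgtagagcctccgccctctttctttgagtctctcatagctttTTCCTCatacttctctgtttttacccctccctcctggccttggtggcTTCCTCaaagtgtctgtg
Itga4, chr2:79255176-79255475, plus strand, GRCm38.p6: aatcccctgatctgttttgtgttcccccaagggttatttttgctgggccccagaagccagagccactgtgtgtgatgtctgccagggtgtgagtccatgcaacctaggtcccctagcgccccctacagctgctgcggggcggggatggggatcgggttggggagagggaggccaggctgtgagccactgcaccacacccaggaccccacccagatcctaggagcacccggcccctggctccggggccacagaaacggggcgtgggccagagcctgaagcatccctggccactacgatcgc

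Genes that switch integrins on and couple them to actin were counted in number 2 beside the 32.0% of all genes higher and 32.1% lower, and no list was tested against other genes. Of 12 tested activators, 7 fell and 3 rose. Fermt3 (kindlin-3, which binds beta tails in blood cells) fell by 0.85 ± 0.08, Skap2 fell by 0.69 ± 0.06 and Rasgrp2 (CalDAG-GEFI, an activator of Rap1) fell by 0.68 ± 0.21, while Raph1 rose by 0.56 ± 0.14, Rapgef1 by 0.33 ± 0.07 and Rap1a by 0.28 ± 0.10 on the log2 scale. Of 22 adaptors and kinases, 14 fell and 6 rose. The Src family kinase Fgr fell by 1.88 ± 0.29, and the leukocyte paxillin relative Lpxn fell by 1.77 ± 0.07. Vcl (vinculin), which strengthens adhesion sites, rose by 1.51 ± 0.07, Parvb by 0.80 ± 0.07 and Bcar1 by 0.73 ± 0.22. Normalized counts of Rasgrp2, Raph1, Rap1a and Bcar1 in number 2 overlapped those of number 1. Of 9 inhibitors, 3 fell (Flna, Sipa1 and Sharpin, by -0.28 to -0.25) and 1 rose. The median log2 fold change was -0.32 for activators, -0.37 for adaptors and kinases and -0.25 for inhibitors, beside 0.01 over all tested genes.

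Of 12 tested other subunits, 6 rose and 1 fell, against 64.1% of all genes called. Itga2b, the platelet alphaIIb chain, rose by 1.498 ± 0.20 and Itga10, a collagen receptor chain, by 1.30 ± 0.20. Itgad, a beta2 partner close to Itgam and Itgax in sequence, was the one that fell, with 8.05 to 18.03 estimated counts in number 2. Of 20 tested ligands, 7 rose and 6 fell, a share near that of all genes. The highest changes among those with at least 50 normalized counts were Mfge8 (milk fat globule protein, a bridge to alphav integrins on macrophages) at 1.64 ± 0.11, Icam5 at 1.34 ± 0.15 and Thy1 at 1.09 ± 0.17. The lowest were Icam2, an LFA-1 ligand, at -1.90 ± 0.22, complement C3 at -1.23 ± 0.17 and Vwf at -0.68 ± 0.19. Vwf overlapped number 1, with 58.3 to 117 normalized counts in number 2, 66.5 to 86.3 in number 1 and 216 to 270 in number 3.

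**Figure D5:**
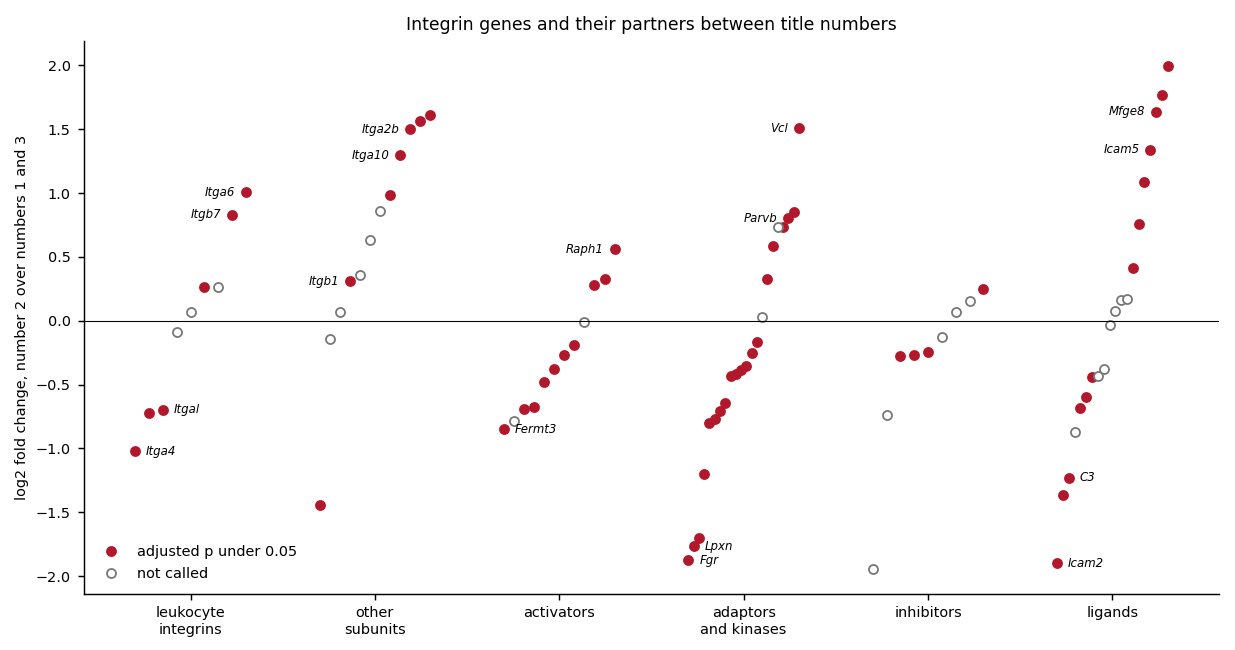
DESeq2 log2 fold change in number 2 over numbers 1 and 3 (y axis) for the tested genes of 6 lists (x axis), ordered by size within a list, with filled points for an adjusted p under 0.05. Adaptors and kinases spread from -1.88 (Fgr) to 1.51 (Vcl), with 14 called below 0 and 6 above.

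Between numbers 1 and 3, where 12.9% of all genes were higher and 10.5% lower in number 1, the lists were counted in the same way. Of the activators 4 were higher in number 1 and 2 lower, with Raph1 at 0.76 ± 0.16, Tln2 at 0.54 ± 0.11 and Apbb1ip (RIAM) at 0.38 ± 0.08 among the higher and Rasgrp2 at -0.90 ± 0.24 and Fyb at -0.46 ± 0.14 the lower. Of the adaptors and kinases 7 were higher, led by Bcar1 at 0.89 ± 0.25, Parvb at 0.55 ± 0.08 and Vcl at 0.54 ± 0.08, and Pxn was lower at -0.23 ± 0.09. Inhibitors counted 3 higher (among them Flna at 0.53 and Dok1 at 0.36) and 1 lower (Itgb1bp1 -0.33). Spp1, which encodes the alphav ligand osteopontin, was higher in number 1 by 0.95 ± 0.08, Mfge8 by 0.90 ± 0.12 and Jam2 by 0.63 ± 0.09. Vwf at -1.62 ± 0.21, Lamb2 at -0.81 ± 0.25 and C3 at -0.47 ± 0.19 were lower, and in all 3 ligands rose and 6 fell. Itgb1 was higher by 0.30 ± 0.07 and Itga2b lower by -1.05 ± 0.25, with 1 of the 12 other subunits higher and 2 lower.

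The genes nearest in pattern were sought for the 3 integrin genes with the largest SD over the 12 libraries, as the root mean square difference of centred log2 normalized counts among 10868 genes with a mean of at least 50. For Itgb3 these were Gpnmb and Slc6a8, at 0.31 and 0.34 of its SD of 0.77. For Itga4 they were Zfp12 and Knop1, at 0.24 each of its SD of 0.53, and for Itga6 Khnyn and Slc44a2, at 0.21 and 0.22 of its SD of 0.53.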

How the data were processed

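From TruSeq Stranded mRNA libraries with paired-end reads the authors quantified transcripts with Salmon against Ensembl mouse cDNA and ncRNA, per the methods. Per the labels the build was GRCh38, while the deposited identifiers are mouse. The deposited files give, for each transcript, its length, an estimated count that is not normalized and a TPM value. Of 118783 listed transcripts 116710 matched GENCODE vM21 (GRCm38), which gave 35944 genes, and unmatched ones took 0.570% to 0.642% of the estimated counts. Counts were summed by gene and rounded, and TPM values were summed.

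The tests ran in DESeq2 1.42.0 (R 4.3.3) on genes that reached 10 counts in 3 or more libraries (two-sided Wald tests, model of the 4 groups, TPM-weighted length offset, Benjamini-Hochberg adjustment over 13923 genes, threshold 0.05), a likelihood ratio test covered the 4 groups, and title numbers were compared with the group as a further term. The fitting script was checked on simulated counts. Same-numbered libraries deviated together from their group means (correlation across genes 0.409 to 0.797 over 18 pairs, mean 0.608), so the number was used as a block. Replicates of a group differed by far more than counting noise (a chi-square of 29.5 to 192 times its degrees of freedom). Alternatives included edgeR 4.0.16, TMM scaling, no filter, no length offset, correction for length and GC, coding transcripts only, and libraries left out. The 10 genes and all lists were chosen with earlier results of these data known. Named were all 10 genes, Itgb1, at most 3 rises and 3 falls per list and title-number comparison from the called genes whose normalized counts averaged 50 or more, and 2 genes nearest in pattern to each of 3 integrin genes. Itgad and the ranges of marker genes were added after their values were seen. Some genes that the rule names are not reported here. Sequences are from RefSeq and the annotation, and protein sequences were not used here.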

Additional observations from a re-analysis of the deposited data

Results flagged for a closer look

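In 40 groups of 4 or 9 libraries examined, 3 values stood apart from the rest of their group by more than the gap expected for its size, where chance alone flags about 1 in 20 groups. Itgam in miR-183-5p-EVs number 2 was at 16.8 TPM, while the other 8 miR-EV libraries lay between 20.3 and 23.2 TPM. In normalized counts that library was at 1203, beside 1201 in miR-142-5p-EVs number 3 and 1208 in miR-183-5p-EVs number 3. On that scale it did not stand apart. Itgax in miR-142-5p-EVs number 2 was at 0.51 TPM against 0.12 to 0.14 in the other number 2 libraries. Itgax in miR-142-5p-EVs number 3 was at 0.86 TPM against 0.09 to 0.14 in the other number 3 libraries. Both Itgax values fell to 0.15 and 0.22 TPM when only protein-coding transcripts were summed, and rest on 7 and 13.4 estimated counts.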

How the results depend on the processing

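The count of integrin genes called against ctrl-EVs was 0 in every comparison and under every alternative run, the replicate block and each left-out library included, so the block changed no call. The lowest adjusted p of these genes over all those fits, by DESeq2 or edgeR, was 0.0754. Over all genes the block with DESeq2 gave 8, 58 and 5 calls by mimic, and edgeR with the block gave 0 in each. In number 2 the count was 6 of 9, 7 without the length offset and 8 from coding transcripts, and 6 to 7 with a library left out. Between numbers 1 and 3 it was 3, 2 by edgeR, 4 without the offset, and 2 to 4 with a library left out. Itgb2 in number 2 turned to 0.049 from coding transcripts, a choice added after seeing the data.

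Small log2 fold changes against ctrl-EVs changed sign in the cases below, and the cause was not tested. With the length and GC correction and the block, Itga4 was -0.054 after miR-142-5p-EVs and -0.12 after miR-183-5p-EVs, Itgal -0.024 after miR-142-5p-EVs, and Itgam -0.039 and Itgb3 -0.0087 after miR-183-5p-EVs. Without the length offset Itga5 was 0.038 after miR-142-5p-EVs and 0.014 after miR-183-5p-EVs (0.035 and 0.0011 with the block), and Itgal 0.0012 after miR-183-5p-EVs. From coding transcripts Itga5 was 0.11, 0.067 and 0.057 by mimic (0.11, 0.052 and 0.055 with the block). Itgam after miR-183-5p-EVs was -0.0085 with TMM scaling, -0.0096 by edgeR (-0.0068 with the block) and -0.0046 without a filter (-0.0019 with the block). Itgb3 after miR-222-3p-EVs was -0.23 with the block, by DESeq2 or edgeR, -0.28 with GC correction, -0.24 without a filter, -0.17 without the offset and -0.093 from coding transcripts, each with the block.

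Further fits against ctrl-EVs left out 1 library, without the block only, or 1 title number, with or without the block. Leaving out 1 library was not run under the block, and without it the title numbers are then unbalanced between groups. Fold changes after miR-142-5p-EVs ranged from -0.12 to 0.44 for Itga4, from -0.18 to 0.72 for Itga6 and from -0.16 to 0.18 for Itgal. They ranged from -0.16 to 0.43 for Itgav, from -0.044 to 0.34 for Itgb2, from -0.71 to 0.21 for Itgb3 and from -0.23 to 0.37 for Itgb7. The fold changes after miR-183-5p-EVs ranged from -0.11 to 0.46 for Itga4, from -0.20 to 0.040 for Itga5, from -0.27 to 0.64 for Itga6, from -0.28 to 0.23 for Itgal, from -0.065 to 0.066 for Itgam, from -0.032 to 0.44 for Itgav, from -0.47 to 0.46 for Itgb3 and from -0.055 to 0.61 for Itgb7. The fold changes after miR-222-3p-EVs ranged from -0.28 to 0.31 for Itga4, from -0.25 to 0.022 for Itga5, from -0.084 to 0.80 for Itga6, from -0.14 to 0.23 for Itgal, from -0.13 to 0.39 for Itgav, from -0.15 to 0.24 for Itgb2 and from -1.07 to 0.43 for Itgb3. Itgb7 after miR-222-3p-EVs kept its sign but ranged from 0.058 to 0.72. Depth limited Itgax most, and Itgb3 next.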

Other observations

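The main transcripts of Itgal had unlike mean levels across the title numbers. The coding transcript Itgal-201 averaged 13.1 TPM in number 1, 3.75 in number 2 and 11.1 in number 3. Its ranges of 3.00 to 4.25 TPM in number 2 and 8.09 to 17.0 TPM in the others did not overlap. TPM values of number 2 carry the general shift given above. How many other transcripts did not overlap was not counted, while 41.3% of all genes did not in normalized counts. Itgal-202 averaged 15.3, 11.5 and 21.9 TPM. These shares rest on how Salmon divides reads between transcripts that differ little, and the difference between the forms was not tested.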
